A study of Mus musculus with 9 samples.

Results

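Zic1, Zic2, Zic4, Foxc1, Foxc2, Foxd1, Tbx18, Twist1 and Prrx1 are 9 transcription factor genes that are used as marks of the meninges, the membranes around the brain, and of mesenchymal tissue. They were chosen as a named set and followed through the 3 layers of the mouse piriform cortex, 9 genes of the 33940 that the count files cover. For each gene the transcript with the highest mean count over the 9 samples stood for the gene. The study captured the layers of the piriform cortex, the main cortical target of the olfactory bulb, to find genes that differ between layers. All 9 samples came from wild type C57BL/6 mice whose age the labels give as 8 weeks (the study's methods give a slightly older age), with no treatment, and each of the layers labelled A, B and C has 3 samples. The tissue was cut by laser from fresh-frozen sections, and the RNA was amplified before libraries that do not keep the strand were made. The labels give no key from the letters to the numbered layers of this cortex, and nothing says that replicates came from separate animals, so the p-values measure only the spread between these samples.

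The meninges form from mesenchyme of neural crest and mesodermal origin. Foxc1 and Foxc2, forkhead factors, act in that mesenchyme, and loss of Foxc1 disturbs the meninges and the cortex under them. Zic factors are zinc finger proteins of the developing dorsal nervous system and of the meninges. Tbx18, a T-box factor, marks mural cells of vessels and other mesenchyme, while Foxd1, Twist1 and Prrx1 are known from stromal, cranial and limb mesenchyme. None of these genes is a standard mark of cortical projection neurons. The study's own in situ hybridization, however, showed Zic1 in piriform neurons, in layer II and sparsely in layer I. The study listed Zic1 and Prrx1 among its candidates for layer I, and its Prrx1 hybridization gave a non-specific signal. In bulk samples, fewer cells of a type and less RNA per cell cannot be told apart, so each value below is a level per library and not per cell.

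Total counts ran from 23104306 to 76471683 per sample. Levels are given as normalized CPM, that is, counts brought to a common library size with a TMM factor for each sample. A floor of 3 counts corresponded to 0.0256 to 0.254 normalized CPM, and it was highest in layer A replicate 1. Mitochondrial transcripts took 56.4% to 72.6% of the layer A counts, against 13.1% to 30.1% for layer B and 21.2% to 59% for layer C. With mitochondrial transcripts left out, the calls of the tested genes were as below, 6 against layer B and 6 against layer C. Correlations of log2 CPM between replicates were 0.915 to 0.921 for layer A, 0.878 to 0.978 for layer B, where replicate 3 stood apart, and 0.913 to 0.959 for layer C.

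Every gene of the set had counts in layer A. For 8 of the 9 genes, every layer A sample lay above every layer B and layer C sample, and the exception was Twist1. For Foxc2 and Foxd1 the lowest layer A sample, replicate 2, had 4 counts, near the floor of 3. Among all 56416 transcripts tested, 12.7% showed that order, and among the highest transcripts of 15170 genes 15.0% did. Both shares are of tested transcripts, whereas the 8 genes include Foxc2 and Foxd1, which were not tested. A count of 10 or more in 3 or more samples was asked of a transcript for testing, and 6 of the 9 genes met this, namely Zic1, Zic2, Zic4, Foxc1, Tbx18 and Prrx1. Foxc2, Foxd1 and Twist1 did not. All 6 met the filter on their layer A samples alone and 4 would have met it on layers B and C alone, so Zic4 and Tbx18 were tested only through the layer in which they were high, and the number of tested genes that passed is a description of them.

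**Figure D1:**
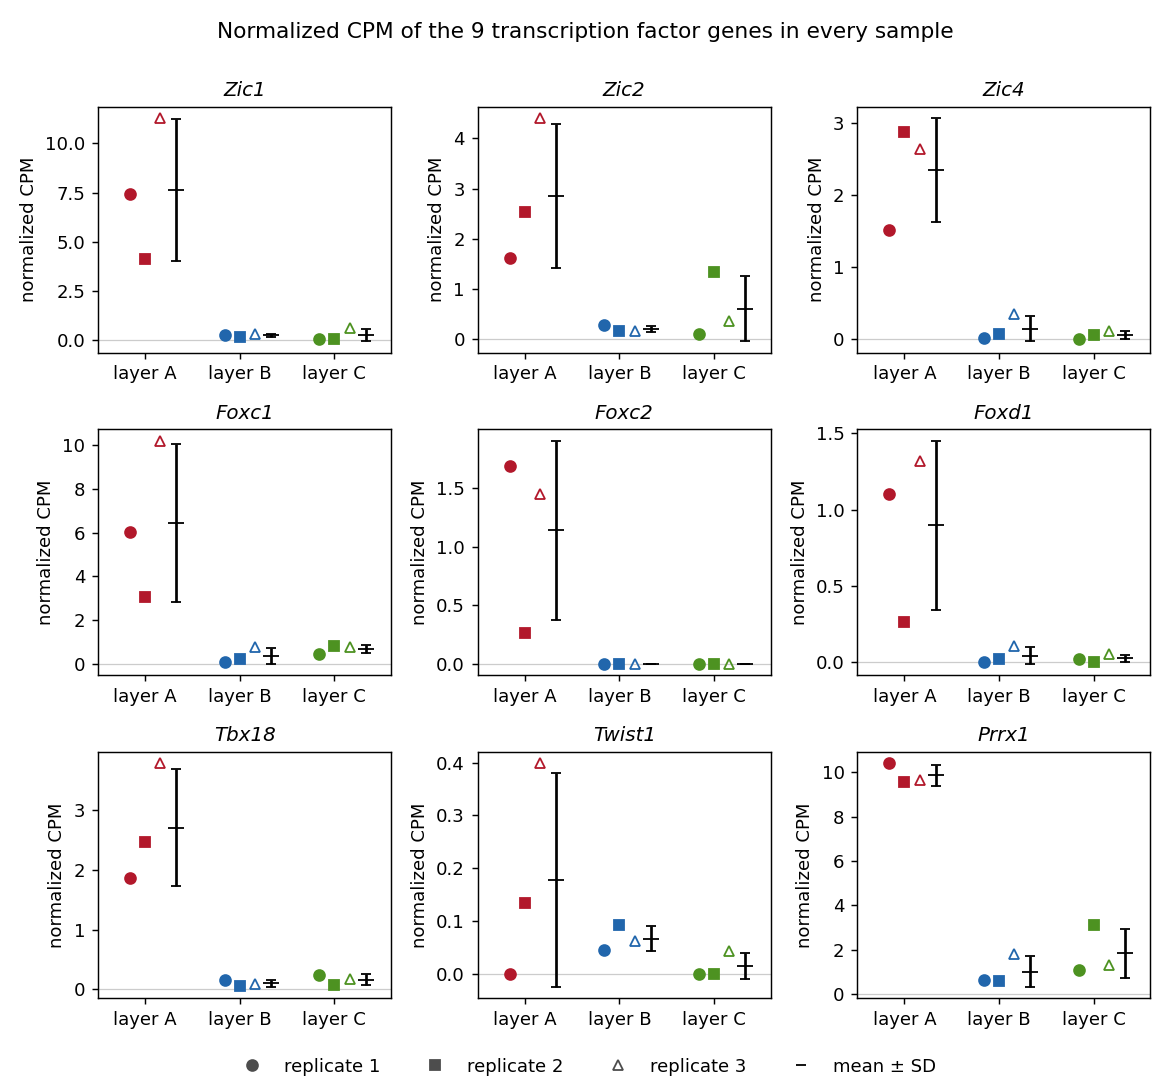
Normalized CPM (vertical axes, a separate linear scale for each gene) of the 9 genes in layers A, B and C, with a point for each of the 3 samples and the mean ± SD beside them. Layer A lies above layers B and C in 8 panels, and the Twist1 panel is the one with overlap and values at or near 0.

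Zic1, on the minus strand at chr9:91358058-91365768 (mm10), had 7.45, 4.14 and 11.3 normalized CPM in layer A replicates 1, 2 and 3. It had 0.247, 0.162 and 0.312 in layer B, and 0.0491, 0.0638 and 0.613 in layer C. Every layer A sample was thus well above the others, replicate 2 was the lowest of layer A, and in layer C replicate 3 carried 72 of the 75 counts. The log2 fold change was 4.98 ± 0.748 (SE, n = 3 per layer) for layer A against layer B (adjusted p = 0.000586, edgeR quasi-likelihood test) and 4.68 ± 0.732 for layer A against layer C (adjusted p = 0.00241).

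Zic4 is encoded head to head with Zic1, and the RefSeq starts of the pair lie 3204 bases apart on chromosome 9. The Zic4 transcript used, at chr9:91378642-91389348 on the plus strand, had 1.52, 2.87 and 2.64 normalized CPM in layer A. The layer B samples had 0.0225, 0.0693 and 0.354, and those of layer C had 0, 0.0638 and 0.119. Layers B and C overlapped each other and lay under layer A. The log2 fold change was 3.94 ± 0.861 (SE) against layer B (edgeR adjusted p = 0.00575) and 4.99 ± 0.938 against layer C (edgeR adjusted p = 0.00505). Another Zic4 transcript, ENSMUST00000173342, shares 60 bases with Zic1 on the opposite strand, and without strand the reads of that stretch cannot be told apart. The Zic4 transcript used here has no such overlap.

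Zic2, at chr14:122475435-122479852 on the plus strand, gave the least firm difference of the tested genes. It had 1.61, 2.54 and 4.41 normalized CPM in layer A and 0.27, 0.162 and 0.167 in layer B. In layer C it had 0.0981, 1.34 and 0.366, where replicate 2 came close to the lowest layer A sample without reaching it. The log2 fold change was 3.84 ± 0.769 (SE) against layer B (edgeR adjusted p = 0.00341) and 2.43 ± 0.729 against layer C (edgeR adjusted p = 0.0429). The call against layer C was lost in 7 of 17 alternatives, with adjusted p from 0.0636 to 0.174, among them the fits without any single layer A replicate and without layer C replicate 1 or replicate 3.

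Foxc1, at chr13:31806633-31812476 on the plus strand, had 6.01, 3.07 and 10.2 normalized CPM in layer A. Its levels were 0.0898, 0.231 and 0.791 in layer B and 0.466, 0.829 and 0.784 in layer C. Replicate 3 was the highest sample in layers A and B, and no sample of layers B and C came near layer A. The log2 fold change was 4.11 ± 0.687 (SE) against layer B (edgeR adjusted p = 0.00112) and 3.23 ± 0.661 against layer C (edgeR adjusted p = 0.00751).

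Foxc2, the paralogue of Foxc1, at chr8:121116171-121118895, was counted only in layer A. Its counts there were 20, 4 and 58, or 1.69, 0.267 and 1.45 normalized CPM, and all 6 samples of layers B and C had a count of 0. With the floor of 3 counts taken over each group, layer A was at least 55.5-fold higher than layer B and at least 71-fold higher than layer C. The exact permutation test gave p = 0.1 (two-sided) for each comparison, the smallest value that 3 against 3 samples allow. Foxc1 and Foxc2 share 4 of their 50-base stretches, so hardly any read could belong to both.

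Foxd1, at chr13:98354242-98359305, had 1.1, 0.267 and 1.32 normalized CPM in layer A from 13, 4 and 53 counts. Layers B and C held 6 and 7 counts in all, none of them over 0.104 normalized CPM. Over the pooled counts layer A was 23.7-fold above layer B and 26-fold above layer C, and the exact permutation p was again 0.1 (two-sided), the smallest possible. Without the count filter, Foxd1 and Foxc2 were also fitted, and both passed the threshold against both other layers, Foxd1 with a log2 fold change of 4.25 ± 1.01 (SE, edgeR adjusted p = 0.0036) against layer B. Foxc2 entered that fit only through its layer A counts, so its pass is a description. The fit without the filter called 10795 transcripts for layer A against layer B and 7198 for layer A against layer C. It also gave smaller adjusted p-values for the genes that met the filter. For Zic1 against layer B, the edgeR adjusted p was 5.79e-06 without the filter and 0.000586 with it.

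Tbx18, on the minus strand at chr9:87702800-87731260, had 1.86, 2.47 and 3.79 normalized CPM in layer A. It had 0.157, 0.0462 and 0.0833 in layer B and 0.245, 0.0638 and 0.162 in layer C, so the latter layers overlapped each other far under layer A. The log2 fold change was 4.80 ± 0.655 (SE) against layer B (edgeR adjusted p = 0.000308) and 3.99 ± 0.625 against layer C (edgeR adjusted p = 0.00243). Of the 50-base stretches of this transcript, 18.4% occur in transcripts of other genes, and 931 bases overlap an opposite-strand transcript of D030062O11Rik, so part of its counts may be shared.

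Prrx1, a paired-type homeobox gene on the minus strand at chr1:163245119-163313672, was the most evenly counted of the set in layer A, with 10.4, 9.55 and 9.63 normalized CPM. It was also the gene best detected elsewhere, with 0.651, 0.6 and 1.81 in layer B and 1.1, 3.13 and 1.3 in layer C. Replicate 3 was high in layer B and replicate 2 in layer C, and no sample reached layer A. The log2 fold change was 3.26 ± 0.526 (SE) against layer B (edgeR adjusted p = 0.000904) and 2.46 ± 0.512 against layer C (edgeR adjusted p = 0.00802). The isoforms ENSMUST00000075805, used here, and ENSMUST00000027878 had mean counts of 115.7 and 114.9 and cannot be told apart in these counts.

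Twist1, at chr12:33957671-33959829, had the lowest mean count of the set. It had 0, 0.134 and 0.399 normalized CPM in layer A, from 0, 2 and 16 counts. Layer B had 2, 4 and 3 counts and layer C had 0, 0 and 5. Layer A overlapped both others, and the exact permutation p was 0.6 (two-sided) against layer B and 0.4 against layer C. The floor of 3 counts was 0.254 normalized CPM in layer A replicate 1, above every value of layers B and C. The 0 in that sample therefore cannot show whether Twist1 differed. Over the pooled counts layer A was 4.06-fold above layer B and 9.36-fold above layer C. Every layer B sample was above every layer C sample (exact permutation p = 0.1, the smallest possible, with 3.92% of all transcripts in that order), but most of these counts lie near the floor. Without the count filter, the fitted log2 fold change was 1.54 ± 1.15 (SE, edgeR adjusted p = 0.445) against layer B and 2.93 ± 1.26 (adjusted p = 0.164, unadjusted p = 0.0268) against layer C, and no difference passed at this depth.

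Compared per length, in normalized CPM per kilobase of transcript, Prrx1 had the highest mean in layer A, 1.98 ± 0.0959 (SD, n = 3). Zic1 followed with 1.36 ± 0.643, Zic2 with 1.17 ± 0.586 and Foxc1 with 1.1 ± 0.617. Zic4 and Tbx18 had 0.603 ± 0.185 and 0.579 ± 0.211. Foxc2, Foxd1 and Twist1 came last with 0.417 ± 0.28, 0.177 ± 0.11 and 0.109 ± 0.125. Between each gene and the next in this order the ranges of the layer A samples overlapped. Within single libraries, Foxc2 and Foxd1 were the only neighbours that kept their order in all of layer A. They had 0.621 and 0.217, 0.0981 and 0.0528, and 0.531 and 0.261 in replicates 1, 2 and 3. In replicate 2 both had 4 counts. Differences between genes were not tested. Prrx1 also had the highest of the 9 means in layer B (0.205 ± 0.137), where its range overlapped that of Foxc1, and in layer C (0.37 ± 0.223), where it overlapped that of Zic2. Library by library, Prrx1 was above Foxc1 in all of layer B and above Zic2 in all of layer C.

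**Figure D2:**
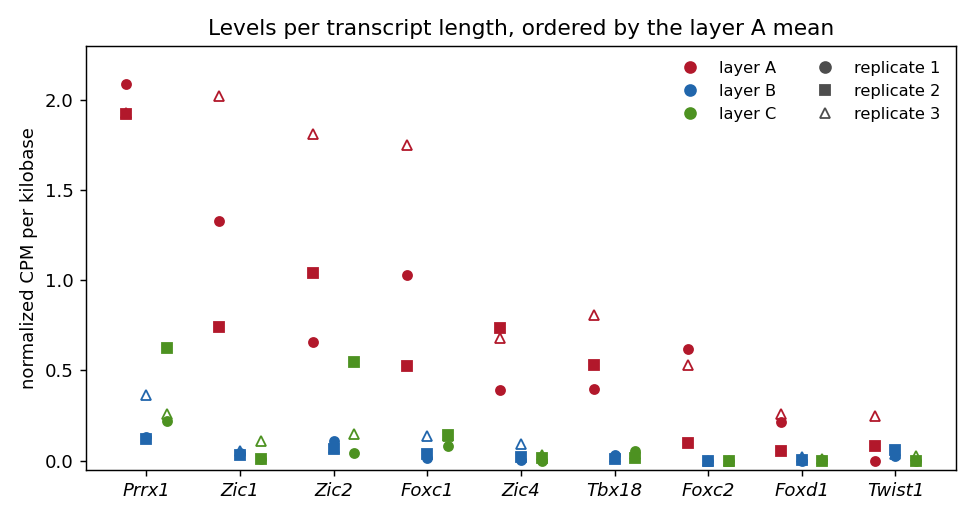
Normalized CPM per kilobase of transcript (vertical axis, linear) for the 9 genes, ordered by their layer A mean, with a point for each sample of layers A, B and C. Prrx1 has the highest layer A mean at 1.98 and Twist1 the lowest at 0.109, and neighbouring genes overlap in layer A.

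Between layers A and B all 6 tested genes passed and were higher in layer A, against 16.5% of all transcripts called and 10.7% called higher in layer A. Their median log2 fold change was 4.03, beside -0.12 over all transcripts. When all 3 layers were tested jointly the 6 passed as well, against 14.3% of all transcripts. Between layers A and C the same 6 passed, against 11.3% called and 6.98% called higher in layer A, and their median was 3.61 beside -0.01 over all. Without layer C replicate 1, 3 genes passed against layer C, since Zic2, Foxc1 (adjusted p = 0.0583) and Prrx1 (adjusted p = 0.063) no longer did. Both comparisons share the layer A samples. Zic4 and Tbx18 were tested only through their layer A counts, so the numbers that passed and the medians of the 6 genes are descriptions. Scaling by total counts in place of TMM lowered the share of calls that favoured layer A to 10.8% from 64.7% in the first comparison and to 9.09% from 61.6% in the second, and moved the median of all transcripts to -1.19 and -0.76, while 6 and 5 members still passed and were higher in layer A.

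Between layers B and C, no tested gene passed (0% of all transcripts called, DESeq2 130, with 2316 at an unadjusted p under 0.05, or 4.11%). The log2 fold changes were -0.29 ± 0.709 (SE) for Zic1, -1.42 ± 0.766 for Zic2, 1.04 ± 0.939 for Zic4, -0.87 ± 0.656 for Foxc1, -0.81 ± 0.665 for Tbx18 and -0.80 ± 0.503 for Prrx1. Their median was -0.80 against 0.07 over all transcripts. The smallest unadjusted p was 0.0837, for Zic2. The signs of Zic1 and Zic4 turned in some alternatives, so no direction between layers B and C is given for them.

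**Figure D3:**
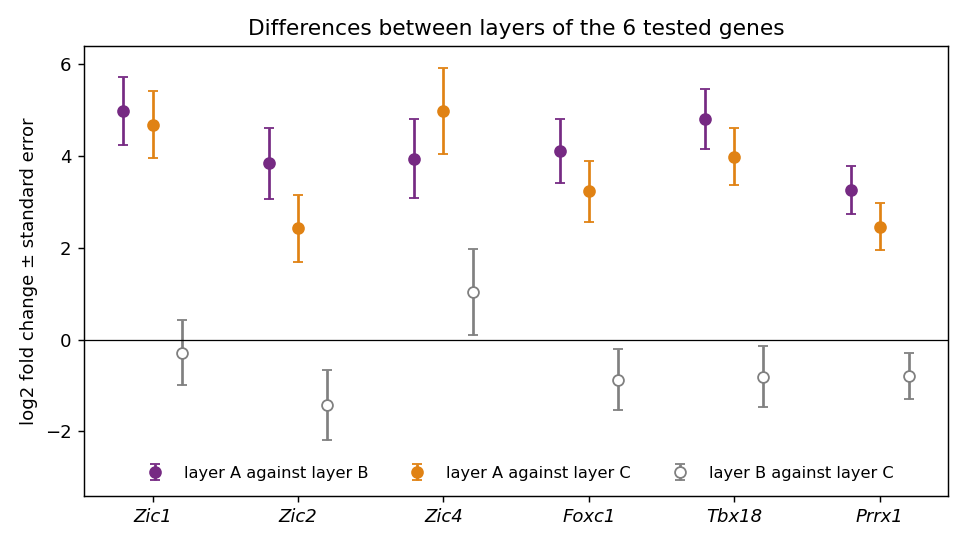
Log2 fold change ± standard error (vertical axis) of the 6 tested genes for layer A against layer B, layer A against layer C and layer B against layer C. Points for layer A against another layer lie between 2.43 and 4.99, and those for layer B against layer C lie between -1.42 and 1.04.

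Other transcripts of the same genes, with a mean count of at least 10, followed the same direction against layer B. The Zic1 transcripts ENSMUST00000065360 and ENSMUST00000173121 had log2 fold changes of 4.61 and 4.47. The Zic4 transcripts ENSMUST00000174611 and ENSMUST00000172646 had 4.92 and 4.69. The Prrx1 transcripts ENSMUST00000027878, ENSMUST00000174397 and ENSMUST00000174098 had 3.28, 3.28 and 3.15, and each of these 7 transcripts passed against layer B. Against layer C 6 of them passed, and ENSMUST00000174098 did not (adjusted p = 0.0836). Of all transcripts, 10.7% were called higher in layer A against layer B and 6.98% against layer C. None of these other Zic1 and Zic4 transcripts would have met the count filter on layers B and C alone, so their passes are a description. Transcripts of a gene share exons and are not independent of the values above.

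The upstream sequences of Zic1, Foxc1 and Prrx1, 3 of the 6 genes that were higher in layer A together, are shown so that their start regions can be compared. Zic4 and Tbx18, also among the 6, had RefSeq promoters as well and are not printed. RefSeq promoters on GRCm38.p6 (the mm10 assembly) matched 7 of the 9 genes. The stretches below end before the first annotated exon of the gene, read 5′ to 3′ on the gene's strand, and cover chr9:91365811-91366018 (minus), chr13:31806396-31806632 (plus) and chr1:163313711-163313900 (minus). Capitals mark matches, on either strand, to the CCAAT box, to the GC box GGGCGG, to the E-box CANNTG, to the homeobox core TAATTA, to the TATA box TATAAA, to the forkhead motif GTAAACA or to the T-box motif GGTGTGA.
Zic1: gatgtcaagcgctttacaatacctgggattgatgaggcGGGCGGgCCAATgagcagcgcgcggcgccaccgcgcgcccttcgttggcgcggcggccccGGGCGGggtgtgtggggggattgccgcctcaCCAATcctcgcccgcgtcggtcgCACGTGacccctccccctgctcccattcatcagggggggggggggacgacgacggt
Foxc1: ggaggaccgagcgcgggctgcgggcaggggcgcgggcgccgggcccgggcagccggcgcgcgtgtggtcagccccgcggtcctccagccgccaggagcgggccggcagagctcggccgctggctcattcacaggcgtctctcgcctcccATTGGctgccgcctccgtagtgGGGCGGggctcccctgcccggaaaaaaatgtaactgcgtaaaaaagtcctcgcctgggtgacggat
Prrx1: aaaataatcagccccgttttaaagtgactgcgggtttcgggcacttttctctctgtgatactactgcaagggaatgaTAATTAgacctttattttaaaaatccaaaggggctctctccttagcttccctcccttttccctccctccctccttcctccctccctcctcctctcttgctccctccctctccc
The windows searched were the 250 bases upstream of the RefSeq start. They include 42, 13 and 60 bases of annotated exon of Zic1, Foxc1 and Prrx1, which are not printed above. In these windows, Zic1 held 2 matches to the CCAAT box, 2 to the GC box and 1 to the E-box. Foxc1 held 1 match to the CCAAT box and 1 to the GC box, and Prrx1 held 1 to the homeobox core and none of the others. The CCAAT box occurs in 33.8% of the 32851 promoter windows of the same length, the GC box in 32.7%, the E-box in 66.2% and the homeobox core in 4.84%. The TATA box, the forkhead motif and the T-box motif, found in 12.4%, 3.17% and 3.33%, had no match in these 3 windows. The windows were 66%, 70.8% and 47.6% G and C in Zic1, Foxc1 and Prrx1, beside a median of 52.4% over all windows. A match is a string of letters and not a binding site.

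Of 17 further genes of the same families, 16 were in the files and 6 were tested. Of those 6, 3 passed with higher levels in layer A against layer B (median log2 fold change of the 6, 2.62) and 2 against layer C, with none lower. Over all transcripts, 10.7% were called higher in layer A against layer B and 6.98% against layer C. Of the 6, 3 would not have met the count filter on layers B and C alone, Tbx15 and Foxq1 among them, so the number that passed is a description. Tbx15, the T-box gene most closely related to Tbx18, had a log2 fold change of 4.39 ± 0.794 (SE, edgeR adjusted p = 0.0018) against layer B. Foxq1, a forkhead gene upstream of Foxc1 on chromosome 13, had 3.03 ± 0.878 (edgeR adjusted p = 0.027) and did not pass against layer C (1.98 ± 0.836, edgeR adjusted p = 0.152). Twist2, the paralogue of Twist1, chosen after its values were seen, had 0.0914 ± 0.158 normalized CPM (SD, n = 3) in layer A against 0.355 ± 0.164 for layer B and 0.288 ± 0.141 for layer C, and did not pass (log2 fold change -1.47, adjusted p = 0.34). Foxd3 and Tbx20, named for the same reason, had no count in any sample.

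Of 21 other mesenchymal transcription factors, 10 were tested, and 6 passed with higher levels in layer A against layer B and 3 against layer C, with none lower. The shares of all transcripts called higher in layer A were 10.7% and 6.98%. Of the 10, 3 would not have met the count filter on layers B and C alone. Msx2, a homeobox gene of cranial mesenchyme, was 1 of these, with 17, 11 and 63 counts in layer A and 4 counts over the other 6 samples, and it was tested only through layer A (edgeR adjusted p = 0.000905 against layer B). Ebf1, a factor of stromal and B lineage cells, had 2.95 ± 0.505 (edgeR adjusted p = 0.0013). Heyl, a Notch target of mural cells, had 3.17 ± 0.57 against layer B (edgeR adjusted p = 0.00176) and 1.59 ± 0.536 against layer C, where it did not pass (adjusted p = 0.0702).

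The list of meningeal fibroblast markers was also higher in layer A. Of 16 meningeal fibroblast markers, 15 were tested, and 15 passed with higher levels in layer A against layer B (median log2 fold change 5.22) and 14 against layer C (median 4.47). The shares of all transcripts called higher in layer A were 10.7% and 6.98%. Of the 15, 7 would not have met the count filter on layers B and C alone, Ogn and Slc22a6 among them, so these counts are a description too. Their summed level was 201.7, 127.8 and 322.6 normalized CPM in layer A replicates 1, 2 and 3, with 4.09 to 16.7 for layer B and 11.6 to 21.4 for layer C. The summed level of the 9 transcription factor genes was 31.7, 25.3 and 45.2 in the same layer A samples, with 1.39 to 3.68 for layer B and 1.99 to 5.49 for layer C. Both sums put replicate 2 lowest and replicate 3 highest in layer A and replicate 3 highest in layer B, while in layer C replicate 2 was highest for the set and replicate 3 for the markers. Ogn, a small proteoglycan of fibroblasts, had the smallest p among them, with 12.2, 7.48 and 20.8 normalized CPM in layer A and none over 0.358 in the others. Col1a2, a fibrillar collagen chain, and Slc22a6, an organic anion transporter, had log2 fold changes of 5.22 ± 0.603 and 5.85 ± 0.684 (SE, edgeR adjusted p = 2e-04 for both) against layer B.

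Vascular and glial lists were higher in layer A too. Of all transcripts, 10.7% were called higher in layer A against layer B and 6.98% against layer C. All 9 pericyte and smooth muscle markers passed against layer B and 8 against layer C, with a summed level of 247.4 to 399.9 normalized CPM in layer A, against 18.2 to 62.1 for layer B and 51 to 73.3 for layer C. Of 9 endothelial markers 8 passed against layer B and 7 against layer C, with sums of 91 to 121.2, 8.24 to 20.5 and 16 to 24.2. All 10 astrocyte markers passed in both comparisons, with sums of 4608.1 to 10071.1, 649.8 to 1068.3 and 1163.7 to 1559.9. Of 9 neuron markers, 2 passed as higher and 4 as lower in layer A against layer B (5.83% of all transcripts were called in the latter direction), and sums overlapped between layers, at 3595.5 to 5340.5, 3161.5 to 6328.7 and 3406.8 to 4769.9. Camk2a was the largest part of the layer A sum, with means of 2976.5, 811.9 and 1121.5 normalized CPM in layers A, B and C. Snap25 (615.5, 2470.8 and 2071.8) and Syt1 (235.9, 648.6 and 633.8) went the other way. The overlap of the sums thus hides markers that differed in opposite directions. Neuron markers were present in every layer of the labelled tissue.

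Of 5 Cajal-Retzius cell markers, 2 were tested. Reln passed in both comparisons, higher in layer A. Calb2 did not pass, with log2 fold changes of -1.21 against layer B and -0.35 against layer C (edgeR adjusted p = 0.431 and 0.875). Reln is not particular to these cells, since the study found Reelin in layer IIa excitatory neurons and in interneurons. Trp73 was not tested (means of 0.304, 0.143 and 0.0142 normalized CPM in layers A, B and C). Lhx5 and Lhx1 were at 0 in all samples of layers B and C and near 0 in layer A. Of 5 choroid plexus markers, 2 were tested. Kcnj13 passed in both comparisons and Kl in neither (edgeR adjusted p = 0.899 against layer B and 0.506 against layer C). Ttr, the defining secreted protein of that tissue, and Folr1 were near 0 in every layer. The part of each cell type in the layer A levels of the 9 genes was not tested. Between layers B and C none of the markers of any list passed.

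**Figure D4:**
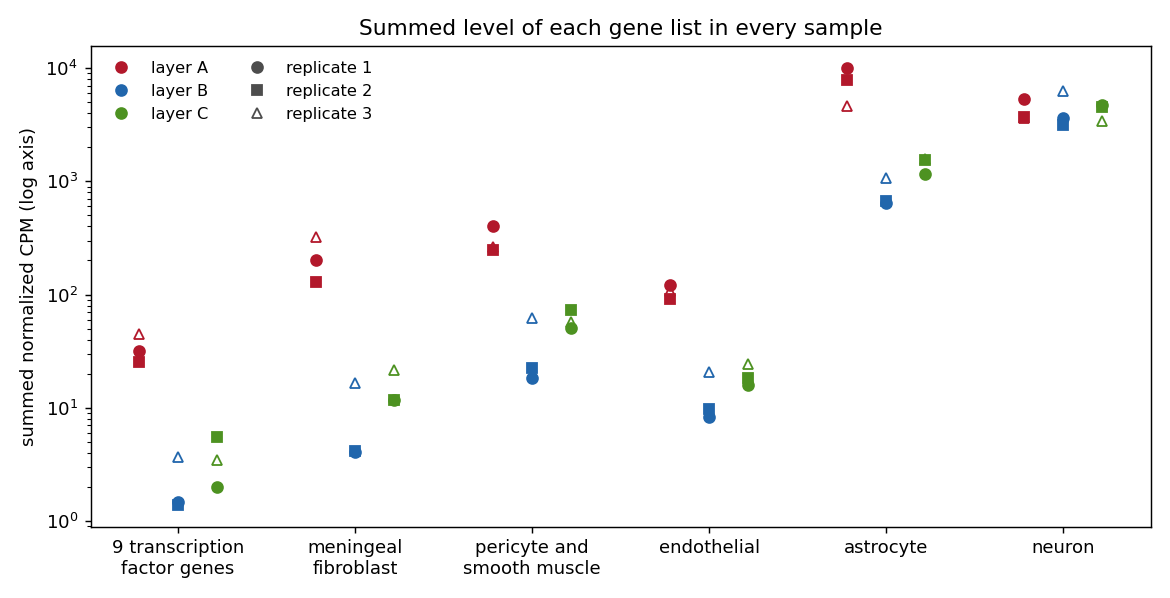
Summed normalized CPM (vertical axis, log scale) of the 9 transcription factor genes and of 5 marker lists in every sample of layers A, B and C. Layer A lies above layers B and C for every list but the neuron markers, where the sums overlap though single markers differ.

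Outside the lists, the 10 genes whose levels were most like the mean standardized log2 CPM of the tested members, over 9 samples and among 15092 candidates, were Gm17120 (Pearson r = 0.995), Id3 (0.992), Fmo2 (0.99), Agmo (0.988), Ttc38 (0.987), Adgre5 (0.986), Hspb8 (0.986), Mif4gd (0.985), Nnt (0.985) and Osmr (0.984). The 9 points share 3 layers and their depths, so these values describe likeness and are not a test. Id3, an inhibitor of basic helix-loop-helix factors, had 13.8 ± 4.78 normalized CPM (SD, n = 3) in layer A against 0.93 ± 0.53 for layer B and 1.64 ± 0.848 for layer C. Osmr, the oncostatin M receptor, had 11.3 ± 2.12, 1.19 ± 0.687 and 1.5 ± 0.672. Likeness of shape was not likeness of size, since Nnt, a mitochondrial transhydrogenase, had 5.69 ± 0.528, 2.71 ± 0.0166 and 3.19 ± 0.54. Each tested member correlated with the mean of the other tested members at 0.892 (Zic2) to 0.959 (Prrx1) over the same 9 samples.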

How the data were processed

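The 9 samples, each with a file of its own, were analysed. The authors deposited raw counts of reads per Ensembl transcript with no normalization, from amplified RNA without molecular identifiers, sequenced as non-stranded paired-end libraries. The submitters' processing notes name bcl2fastq 1.8.4, Bowtie, HTSeq 0.5.3 and the mm10 build. How reads shared by transcripts were counted is not given in the sources used here. Intervals of counting were not computed, and floors of 3 counts cover counting error only.

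Of 95533 identifiers, 82779 (86.6%) were found in GENCODE M21 on GRCm38. Transcripts counted 10 times or more in 3 or more samples (56416) were scaled by TMM and fitted with edgeR 4.0.16 in R 4.3.3 (quasi-likelihood, all 9 samples in the fit, Benjamini-Hochberg adjustment over all transcripts, threshold 0.05). DESeq2 1.42.0, other scalings and filters, sums by gene, the replicate block, the 6 samples compared, removal of mitochondrial transcripts and each sample left out were alternatives. Genes under the filter had an exact permutation test of normalized CPM. Replicates of a layer differed by more than sampling noise in every pair (chi-square per degree of freedom 16.1 or more).

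The text names the 9 genes by their highest transcript, their other transcripts with a mean count of at least 10, the 3 genes of each list with the smallest p for layer A against layer B, and the 10 genes most like the tested members (Pearson r, prior count 2). A gene that this rule names is not reported here. Members and lists were chosen with earlier results of these data known. The fit was tested on simulated counts, where the share of false calls lay above the nominal rate and above the limit first set, which was loosened after that result was seen. Median fold changes were recovered.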

Additional observations from a re-analysis of the deposited data

How the results depend on the processing

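Of 307 values of the tested members under the alternatives, 295 kept their direction and side of the threshold, 9 lost the threshold and 3 turned sign. The 9 were layer A against layer C, of which 7 were Zic2 and the others Foxc1 and Prrx1 without layer C replicate 1. The sign changes were uncalled differences between layers B and C, namely Zic1 with the replicate block (0.20) and without layer C replicate 3 (2.06), and Zic4 without layer B replicate 3 (-0.71). With each sample left out, these log2 fold changes ran from -0.78 to 2.06 for Zic1 and from -0.71 to 2.71 for Zic4. With at least 10 counts asked in all 9 samples, only Prrx1 of the set was tested, so 1 gene passed in layer A against layer B, in layer A against layer C and in the test of any difference. With no filter, 8 passed in each of these, beside 10795, 7198 and 9698 transcripts called.

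The number of transcripts called was 9329 for layer A against layer B, 6389 for layer A against layer C, 0 for layer B against layer C and 8061 for any difference. Total counts gave 16974 for the first. Sums by gene, which count genes, gave 3562, 2622, 1 and 3153. Between layers B and C, no filter gave 10 and DESeq2 130. With each sample left out, members called stayed at 6 for layer A against layer B and for any difference, and ranged from 3 (without layer C replicate 1) to 6 for layer A against layer C. Transcripts then ranged from 5570 (without layer A replicate 1, and 5759 without layer B replicate 1) to 11337, from 1369 (without layer C replicate 1) to 9740 (without layer B replicate 3), from 0 to 17 (without layer B replicate 3), and from 4070 (without layer A replicate 1) to 11312 (without layer B replicate 3), with 2727 and 3238 for layer A against layer C without layer A replicates 1 and 2 and 3785 without layer C replicate 2, and 4707 for any difference without layer A replicate 2. The cause was not tested.

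Deviations of equal-numbered samples from their layer means correlated at -0.182 to 0.263, over 0.1 in 5 of 9 pairs. Samples of unequal number correlated at -0.396 to 0.422. With 3 samples per layer, these correlations cannot tell whether the replicate numbers pair the samples. With the replicate block 6, 6 and 0 members passed, with 9184, 6384 and 0 transcripts, and no call of a member changed. At these counts Twist1 passed in no comparison, with or without the filter, and Foxc2, Foxd1 and Twist1 could not reach a p under 0.1 in the exact test.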
